A study of Mus musculus with 12 samples.

Results

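The constitutive proteasome genes of B16 cells, an established melanoma line from the mouse, were followed through interferon treatment with and without Adar. They were taken by symbol: every gene named Psma, Psmb, Psmc or Psmd with a number, except the interferon-inducible Psmb8, Psmb9 and Psmb10 and pseudogenes. This gave 37 of 23336 symbols, 16 in the core class (Psma and Psmb) and 21 in the cap class (Psmc and Psmd), and 35 of them had enough reads to be tested. The rule used names only and no measured value. It also catches Psmc3ip, which encodes a protein of meiotic recombination and is no proteasome subunit, so cap counts are given with and without it.

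The proteasome degrades proteins that carry a ubiquitin chain. Its barrel-shaped core is built of outer rings of alpha subunits (Psma genes) and inner rings of beta subunits (Psmb genes), of which Psmb5, Psmb6 and Psmb7 encode the standard proteolytic sites. Its cap holds a ring of ATPases (Psmc genes) that unfold substrates, and scaffold, lid and ubiquitin-binding subunits (most Psmd genes). Interferons are known to induce Psmb8, Psmb9 and Psmb10, whose products replace the standard sites in newly built immunoproteasomes, and cells short of proteasome activity are known to raise core and cap genes together through the transcription factor encoded by Nfe2l1.

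B16 cells had been given Cas9 and 1 guide by transient transfection, then subcloned. Control cells (Ctrl) carried the non-targeting guide control sgRNA 5, and Adar-null cells (Adar KO) carried Adar sgRNA 1. Both were kept for 36 h with IFNb at 1000 U per mL or with vehicle, saline with albumin, which gave 4 groups of 3 libraries: control vehicle, control IFNb, Adar-null vehicle and Adar-null IFNb. Adar encodes an enzyme that edits adenosine to inosine in double-stranded RNA. Genotype, guide and subclone cannot be told apart here, and no label says that replicates were separate cultures, so each p-value measures spread among libraries that may be technical only. An interferon-gamma arm was not analysed here.

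Libraries held 5375649 to 7153480 counted reads, of which 21.1 to 28.5% fell on the ribosomal precursor Rn45s and 0.225 to 0.267% on the 37 proteasome genes. Levels are CPM, counts divided by library sizes that trimmed-mean (TMM) factors had adjusted and brought to 1 common total. Adar itself was at 70.2 to 74.2 CPM in control vehicle libraries and 56.3 to 65.5 CPM in Adar-null vehicle libraries, and at 384 ± 7.46 and 407 ± 21.1 CPM (SD, n = 3) under IFNb, and whole-gene counts do not test a small deletion made by a guide. All 7 melanocyte markers listed were abundant. Their sum was 15621 to 16448 CPM in control vehicle, 13345 to 13642 CPM in control IFNb, 15235 to 15420.5 CPM in Adar-null vehicle and 10419 to 11132 CPM in Adar-null IFNb libraries, so it moved with the treatment. The markers did not move alike. By the edgeR test described below, 3 of 7 were lower with IFNb in control cells and 6 of 7 in Adar-null cells. Of all genes, 26.5% and 35.7% were lower. The log2 changes were -0.80 and -0.89 for Dct, against 0.02 and 0.00 for Tyrp1, which did not pass the test. Cd3e, Epcam and Krt8 were at 0 counts in all 12 libraries, and the summed leukocyte and endothelial markers stayed at or below 3.87 and 1.7 CPM. Fibroblast markers summed to 9.43 to 24.5 CPM, most from Col1a2, and epithelial markers to 0.901 to 4.27 CPM, all from Cdh1. In bulk RNA, fewer cells of a kind and less RNA per cell cannot be told apart. The part that the fall of the summed melanocyte markers has in the results below was not tested.

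Read support differed widely among the proteasome genes. Psmd8, a lid subunit, had 1124 to 2094 reads per library, and Psma3, an alpha subunit, had 18 to 33. Per kilobase of exon in control vehicle libraries, Psmb4 was highest at 120.4 ± 7.9 CPM per kb (SD, n = 3), followed by Psmd8 at 102.6 ± 3.34 CPM per kb. Psmc5, Psmb6 and Psmc4 came next at 83.4 ± 5.59, 82.2 ± 5.59 and 82.1 ± 4.32 CPM per kb, an order that lay within their spread. The lowest were Psma3 at 1.37 ± 0.283, Psma5 at 4.75 ± 1.2, Psma2 at 6.28 ± 0.299 and Psmb3 at 7.44 ± 0.796 CPM per kb. Exon length was the union over all annotated protein-coding transcripts of a gene, so a long annotation can lower its value. It was 3673 bases for Psma2 and 2846 for Psma3, against 1239 for Psma5, 766 for Psmb3 and 1241 for Psma1. As background, the particle holds its core subunits in equal numbers. Many of these genes have processed pseudogenes. Of the 37-base words in the transcripts of Psmb5, Psmb3 and Psma5, 66.9%, 63.8% and 62.6% also occur in another annotated gene, against 0% for 15 of the 37 genes. How reads that match several places were counted is not given in the sources used here, so low levels of such genes are uncertain. The strand setting of the counting is not given either, and the spans of Psma2, Psma3, Psma4, Psma5, Psma6, Psmb7, Psmc3, Psmc3ip, Psmd1, Psmd3, Psmd5, Psmd9, Psmd13 and Psmd14 each overlap an annotated gene or pseudogene on the other strand.

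Psma8, an alpha subunit of male germ cells, had 0 counts in every library, where 3 counts over a group would be 0.157 to 0.173 CPM. Psmb11, the beta subunit of the thymus, had 1 count in all. Neither was tested, and the sections that follow concern the other 14 core and 21 cap genes.

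Promoter sequence was available from RefSeq (GRCm38.p6) for 30 of the 37 genes, as 32 windows of 250 bases before to 50 bases after the start. Psma8, Psmb1, Psmb2, Psmb7, Psmc3, Psmd3 and Psmd7 were not in that table. Each window was searched on both strands for TGACNNNGC, for CCAAT, the NF-Y box, and for the core of the interferon response element. TGACNNNGC is the core of the antioxidant response element, to which the products of Nfe2l1 and Nfe2l2 bind. TGACNNNGC was found in 15.6% of the proteasome windows (Psmb5, Psmb6, Psmc6, Psmd9 and Psmd12) and in 12.4% of all 32851 windows. CCAAT was found in 40.6% and 37.4%, and the interferon element core in 9.38% (Psmb3, Psmd4 and Psmd9) and 3.44%. The windows with CCAAT include those of Psmc3ip, which is no subunit, and of the thymus gene Psmb11. No motif overlapped another in the windows printed here. A match describes letters and is not evidence of binding. The 250 bases before the start are shown for Psmb5 and Psmb6, a pair of catalytic genes with a TGACNNNGC match, of which Psmb5 was called lower with IFNb in Adar-null cells and Psmb6 was not called, for Psma7, the alpha gene that fell furthest in Adar-null cells, and for Psmd8, which rose in both genotypes. They are written 5′ to 3′ along the gene, and capitals mark a TGACNNNGC or CCAAT match.
Psmb5 (chr14:54617996-54618245, minus strand): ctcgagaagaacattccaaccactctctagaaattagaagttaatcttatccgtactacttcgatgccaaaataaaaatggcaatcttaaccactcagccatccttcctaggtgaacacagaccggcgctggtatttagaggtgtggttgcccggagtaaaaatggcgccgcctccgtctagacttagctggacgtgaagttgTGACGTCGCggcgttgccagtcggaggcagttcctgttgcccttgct
Psmb6 (chr11:70525107-70525356, plus strand): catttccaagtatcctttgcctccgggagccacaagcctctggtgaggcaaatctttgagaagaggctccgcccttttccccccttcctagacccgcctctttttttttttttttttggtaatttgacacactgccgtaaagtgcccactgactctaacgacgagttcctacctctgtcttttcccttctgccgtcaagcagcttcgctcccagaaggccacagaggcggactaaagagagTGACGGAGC
Psma7 (chr2:180042465-180042714, minus strand): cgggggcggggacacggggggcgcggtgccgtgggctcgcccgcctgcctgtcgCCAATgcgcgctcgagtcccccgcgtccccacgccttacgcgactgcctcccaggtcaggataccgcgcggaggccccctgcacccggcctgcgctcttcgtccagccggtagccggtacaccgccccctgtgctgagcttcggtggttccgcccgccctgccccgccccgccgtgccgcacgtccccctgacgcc
Psmd8 (chr7:29180674-29180923, minus strand): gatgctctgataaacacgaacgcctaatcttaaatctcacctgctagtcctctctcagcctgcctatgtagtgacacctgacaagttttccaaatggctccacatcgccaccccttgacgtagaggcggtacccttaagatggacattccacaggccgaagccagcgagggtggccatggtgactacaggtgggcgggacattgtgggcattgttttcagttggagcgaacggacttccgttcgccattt
The Psmb5 match begins 47 bases before the start and the Psmb6 match 9 bases before it. The Psma7 window holds 1 CCAAT, 196 bases before the start, and the Psmd8 window holds none of the 3 motifs.

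Without interferon, the genotypes did not differ detectably in any proteasome gene. The edgeR quasi-likelihood test, with p-values adjusted (Benjamini-Hochberg) over 11561 genes and a gene called at an adjusted p under 0.05, called 0 of 14 core and 0 of 21 cap genes. Of all genes, 6.51% were called, 2.47% with higher and 4.05% with lower levels in Adar-null libraries. At an unadjusted p under 0.05 there were 0 core and 2 cap genes, and DESeq2 also called 0 and 0. Lower without overlap in Adar-null libraries were 3 cap genes, Psmd2, Psmd8 and Psmd14. Of all 11561 genes, 1362 lay lower and 1211 higher in this way. The median log2 difference, Adar-null minus control, was -0.03 for core and -0.01 for cap genes without Psmc3ip, and single genes ran from -0.17 (Psmb3) to 0.14 (Psmc1). Within classes the values ran from -0.06 (Psma6) to 0.11 (Psma3), from -0.17 (Psmb3) to 0.08 (Psmb2), from -0.07 (Psmc6) to 0.14 (Psmc1) and from -0.16 (Psmd14) to 0.11 (Psmd10). Psmd14, the lid deubiquitinase, had the lowest cap value at -0.16 ± 0.08 (SE), with 51.1, 48.1 and 50.5 CPM in control and 47.7, 42.2 and 44 CPM in Adar-null libraries (adjusted p = 0.232).

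In control cells, IFNb was followed by small changes of cap genes, more of them rises than falls, and by few called changes of the core. Of the 21 cap genes, 9 rose and 4 fell, with a median log2 change of 0.10, or 0.13 without Psmc3ip, which was not called (-0.35 ± 0.16). Of the 14 core genes, 3 rose and 1 fell, with a median of 0.05. Of all genes 53% were called, 26.5% higher and 26.5% lower with a median at 0.00 for their log2 change. The 13 cap genes called were near this share, and with DESeq2 or without control vehicle replicate 3 the count was 8. The 4 core genes called were below it. The split depends on scaling. With upper-quartile scaling or library size alone it was 6 cap genes higher and 6 lower, the core split with library size alone was 1 and 1 with a median of -0.02, and of all genes 2469 then passed upward and 3797 downward, against 3067 and 3066.

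The highest log2 changes of the cap in control cells were those of Psmd8 and Psmd12. Of the 8 lid genes with a Psmd symbol 4 rose and 1 fell, with a median of 0.13. Psmd8 stood at 218, 232 and 228 CPM with vehicle and 295, 299 and 308 CPM with IFNb. Psmd12, another lid subunit, was at 75.3, 78.2 and 75.9 CPM and then 104, 97.7 and 97.7 CPM. In both genes every IFNb library lay above every vehicle library, and the log2 changes were 0.41 ± 0.05 and 0.38 ± 0.06 (edgeR adjusted p = 1.69e-13 and 7.24e-08). A lack of overlap was common in control cells: of 11561 genes, 3359 lay higher and 3297 lower with IFNb in this way. Psmd7, the lid partner of the deubiquitinase, rose by 0.33 ± 0.07, and Psmd1, the large scaffold of the base, rose by 0.28 ± 0.05. Psmc5, an ATPase, rose by 0.22 ± 0.05 and Psmd4, a ubiquitin receptor, by 0.21 ± 0.06.

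Among core genes of control cells, Psmb2, a beta subunit without a proteolytic site, moved most. It was at 44.9, 40.0 and 44.9 CPM with vehicle and at 58, 54.8 and 54.5 CPM with IFNb, with no overlap, a log2 change of 0.37 ± 0.08 (edgeR adjusted p = 3.54e-05). Psma7, an alpha subunit, went from 65.5, 64.4 and 70.0 CPM to 80.2, 82.4 and 71.5 CPM, a change of 0.23 ± 0.07, which was not called with library size alone (adjusted p = 0.0573). Psma4 rose by 0.27 ± 0.11, a call lost without control vehicle replicate 2 or 3 or control IFNb replicate 1 or 3 (adjusted p = 0.071 to 0.104). That call was also lost with DESeq2 (adjusted p = 0.111) and with library size alone (edgeR adjusted p = 0.129). Psmb4 was the core gene that fell, by 0.17 on the log2 scale, and its call was lost without control vehicle replicate 2 (adjusted p = 0.0601). The 3 catalytic genes were not called and their groups overlapped. Psmb5 was at 12.8, 7.58 and 9.56 CPM with vehicle and 7.82, 8.43 and 12.2 CPM with IFNb (-0.06 ± 0.18). Psmb6 was at 68.3, 68 and 60.4 CPM and then 68.5, 66.6 and 68.9 CPM (0.05 ± 0.07), and Psmb7 at 68.1, 62.8 and 61.5 CPM and then 71.8, 58 and 65.9 CPM (0.02 ± 0.07). Psma5 had the lowest alpha value at -0.04.

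Psmd6 was the lid gene with a Psmd symbol that was called lower in control cells, from 59.3, 60.3 and 61.9 CPM to 51.6, 50.4 and 46.3 CPM. Its fall of 0.29 ± 0.07 held in every alternative fit. Other calls in control cells were less firm. Those of Psmc1, Psmd2, Psmd5, Psmd9 and Psmd13 were lost with DESeq2 (adjusted p = 0.104 to 0.161). Those of Psmc1, Psmd5 and Psmd13 were also lost with library size alone (edgeR adjusted p = 0.185 to 0.322). The losses given next are those with 1 library left out. Psmc6 (-0.19 ± 0.06) was lost without control vehicle replicate 2 (adjusted p = 0.0541). Psmc1 (0.20 ± 0.08) was lost without control vehicle replicate 3 or control IFNb replicate 2 or 3 (0.0631 to 0.19), and Psmd13 (0.16 ± 0.07) when any library of these groups but vehicle replicate 2 was left out (0.0594 to 0.224). Psmd2 (-0.12 ± 0.05) and the assembly chaperone Psmd5 (0.18 ± 0.08) were each lost without vehicle replicate 1 or 3 or IFNb replicate 1 or 2 (0.0769 to 0.162 and 0.114 to 0.253). The chaperone Psmd9 (-0.26 ± 0.10) was lost without vehicle replicate 2 or 3 or IFNb replicate 1 or 3 (0.0599 to 0.148). Without control vehicle replicate 3, 8 cap genes were called, 6 higher and 2 lower, and without control vehicle replicate 2, 2 core genes were called.

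**Figure D1:**
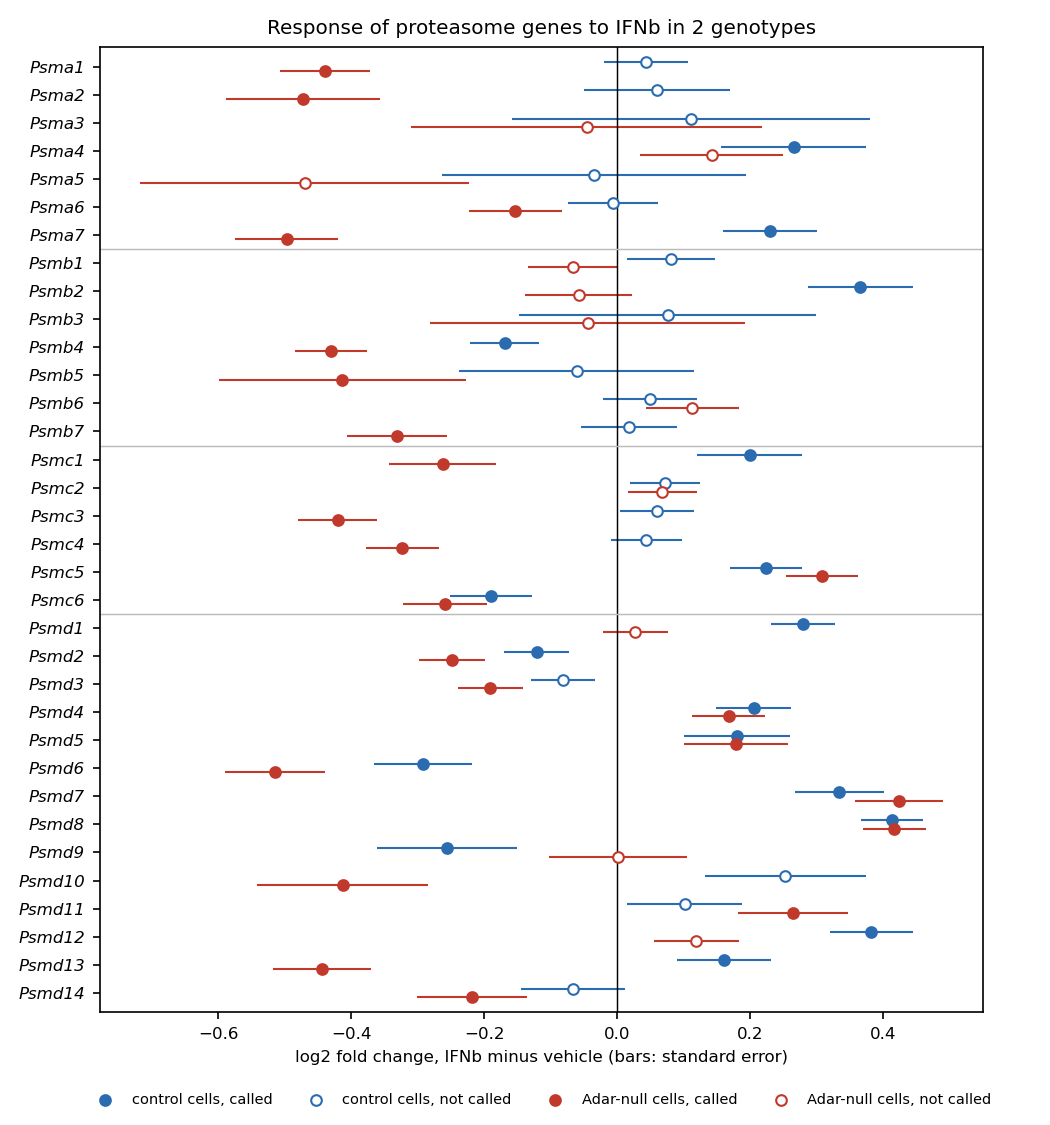
Log2 fold change, IFNb minus vehicle, of the 34 tested core and cap genes in control cells (blue) and Adar-null cells (red), by class from Psma at the top to Psmd at the bottom. Bars are standard errors and filled points are called at an adjusted p under 0.05. Most alpha-ring and ATPase genes lie to the left of 0 in Adar-null cells and near or above 0 in control cells. Psmc5, Psmd4, Psmd5, Psmd7 and Psmd8 are called above 0 in both. Other genes, among them Psma4 and Psmb6 of the core, lie above 0 in both without being called in both.

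In Adar-null cells, IFNb was followed by falls in both core and cap, and by called rises in the cap alone. Of the 14 core genes, 7 fell and 0 rose, with a median log2 change of -0.24. Of the 21 cap genes, 11 fell and 6 rose, with a median of -0.19 (10 fell and the median was -0.10 without Psmc3ip), and with library size alone 11 fell and 3 rose. Of all genes 72.3% were called, 36.6% higher and 35.7% lower, with a median of 0.01. The share that fell was above that of all genes in both classes, 50% of core and 52.4% of cap genes (50% without Psmc3ip). The share that rose was 0% of core and 28.6% of cap genes (30% without Psmc3ip), both below that of all genes. These counts describe the genes and are no test of the list. A lack of overlap between treated and untreated libraries was the usual outcome here: of 11561 genes, 4340 lay higher and 4183 lower without overlap.

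The largest core falls of Adar-null cells were in the alpha ring. Psma7 (chr2:180036374-180042433, minus strand) stood at 65.4, 65.2 and 64.6 CPM with vehicle and at 38.6, 45.3 and 53.4 CPM with IFNb. Every IFNb library was below every vehicle library, the 3 IFNb libraries were spread widely, and the log2 change was -0.50 ± 0.08 (edgeR adjusted p = 1.02e-08). Psma1 went from 81.3, 79.7 and 75.5 CPM to 55.8, 58.7 and 59.7 CPM, and Psma2 from 23.1, 24.5 and 24.7 CPM to 17.6, 17.1 and 17.5 CPM, both without overlap, changes of -0.44 ± 0.07 and -0.47 ± 0.12. Psma4 had the highest value of the ring, 0.14 ± 0.11, with 23.6, 22.8 and 22.6 CPM against 22.9, 26.3 and 26.5 CPM, which overlap, and was not called (adjusted p = 0.23). Psma6 fell by 0.15 on the log2 scale, a call lost without Adar-null vehicle replicate 2 or 3 or Adar-null IFNb replicate 1 or 2 (adjusted p = 0.0641 to 0.168). That call was also lost with DESeq2 (adjusted p = 0.147). Psma3 and Psma5 were not called, with changes of -0.05 ± 0.26 and -0.47 ± 0.25 on few reads, and Psma5 was called without vehicle replicate 2 or IFNb replicate 1 (0.0407 and 0.0415).

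The beta ring was divided, and its 3 catalytic genes with it. Psmb4 (chr3:94884093-94886961, minus strand) went from 142, 139.7 and 129 CPM to 98.4, 102 and 105 CPM, without overlap, the largest fall of the ring at -0.43 ± 0.05 (edgeR adjusted p = 3.37e-12). Psmb7, the trypsin-like site, went from 58.7, 70.0 and 63.7 CPM to 52.4, 51 and 50.4 CPM, a change of -0.33 ± 0.07 (adjusted p = 4.3e-05). Psmb6, the caspase-like site, did not pass the test at 0.11 ± 0.07, with 61.6, 68 and 61.8 CPM against 60.5, 72.2 and 73.8 CPM; without IFNb replicate 1 it was called higher at 0.18 (adjusted p = 0.0248). Psmb5, the chymotrypsin-like site, went from 10.6, 10.8 and 8.37 CPM to 6.43, 8.26 and 7.58 CPM, which just do not overlap. Its change of -0.41 ± 0.19 rests on 34 to 78 reads a library and was lost without vehicle replicate 1 or 2 or IFNb replicate 1 or 3 (0.0576 to 0.144). The Psmb5 call was also lost with DESeq2 (adjusted p = 0.151). Psmb1, Psmb2 and Psmb3 were not called, at -0.07 ± 0.07, -0.06 ± 0.08 and -0.04 ± 0.24.

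**Figure D2:**
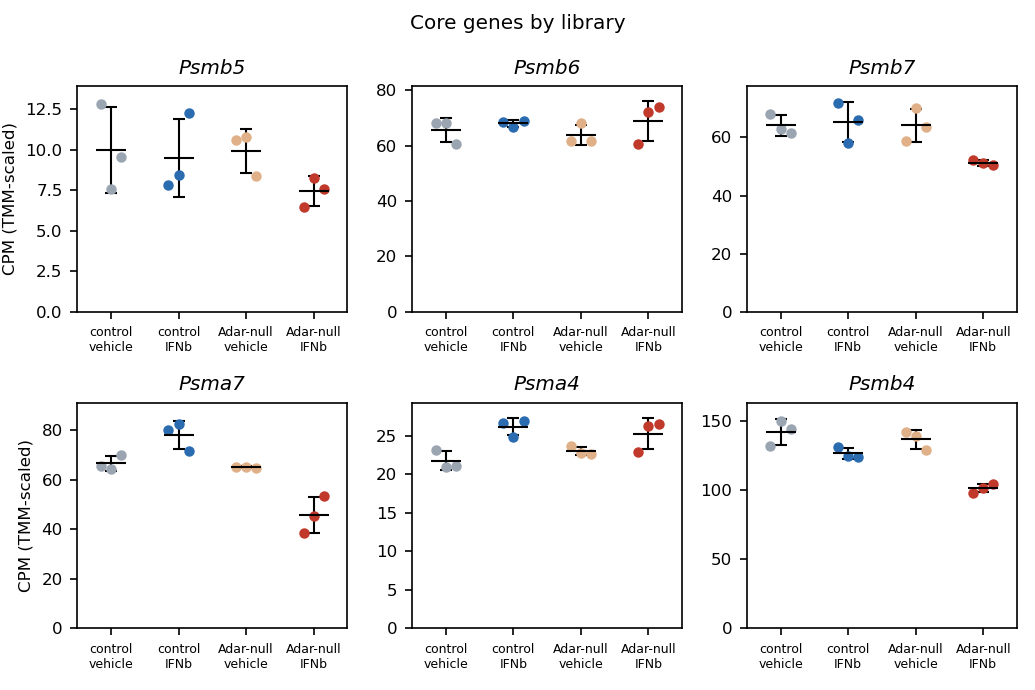
CPM of 6 core genes in each of the 12 libraries (points), with the mean and SD of each group (bars); each axis starts at 0. Psmb7, Psma7 and Psmb4 are lowest in the 3 Adar-null IFNb libraries, whereas the groups of Psmb6 overlap.

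The ATPase ring of the cap split in the same cells. Psmc3 (chr2:91054009-91066369, plus strand) went from 108, 107 and 105 CPM with vehicle to 77, 77 and 85 CPM with IFNb, the largest fall of the 6 ATPase genes at -0.42 ± 0.06 (edgeR adjusted p = 3.17e-10). Psmc4 went from 115, 119 and 124 CPM to 98.4, 92.5 and 96.2 CPM (-0.32 ± 0.06). Psmc5 (chr11:106256154-106263120, plus strand) went the other way, from 105, 109 and 104 CPM to 128, 128 and 138 CPM (0.31 ± 0.05, adjusted p = 2.82e-07). In all 3 genes the treated and untreated libraries did not overlap. Psmc1 and Psmc6 each fell by 0.26 on the log2 scale, and Psmc2 was not called (0.07 ± 0.05).

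Lid and base genes of Adar-null cells also moved both ways. Psmd6 (chr14:14112174-14120984, minus strand) fell furthest of the Psmd genes, from 59.7, 64 and 60.2 CPM to 42.7, 45 and 41.1 CPM, by 0.51 on the log2 scale (edgeR adjusted p = 1.28e-09). Psmd13 went from 71.7, 60.9 and 61.6 CPM to 48.8, 46.8 and 46.9 CPM (-0.44 ± 0.07). Both were lower in each treated library than in any untreated one. Psmd7 (chr8:107580381-107588464, minus strand) went up from 64, 70.5 and 70.5 CPM to 85.7, 92.5 and 96.4 CPM, and Psmd8 from 192, 216 and 215 CPM to 269, 279 and 284 CPM, again without overlap, at 0.42 ± 0.07 and 0.42 ± 0.05. Psmd2 and Psmd3 fell by 0.25 and 0.19 on the log2 scale, and the scaffold Psmd1 was not called (0.03 ± 0.05). Psmd4 rose by 0.17 ± 0.06, a call lost without Adar-null IFNb replicate 3 (adjusted p = 0.0819) and with library size alone (0.08, adjusted p = 0.216). Psmd11 rose by 0.26 ± 0.08, lost without Adar-null vehicle replicate 2 or IFNb replicate 2 (0.119 and 0.0868) and with library size alone (0.0661). Psmd14 (-0.22 ± 0.08) was lost without vehicle replicate 1 or IFNb replicate 2 (0.0921 and 0.062) and with DESeq2 (0.0637). Psmd12 was not called at 0.12 ± 0.06, but was called without vehicle replicate 3 or IFNb replicate 2 (0.0155 and 0.0459).

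The 3 assembly chaperones of the cap base had 3 different responses. Psmd10, also known as gankyrin, fell from 20.2, 18.6 and 19.4 CPM to 12.5, 14.7 and 16.1 CPM in Adar-null cells (-0.41 ± 0.13, edgeR adjusted p = 0.00271). Psmd9 was at 0.00 ± 0.10. Psmd5 rose by 0.18 ± 0.08, a call lost without Adar-null vehicle replicate 1 or 2 or Adar-null IFNb replicate 2 or 3 (0.0873 to 0.188). That call was also lost with DESeq2 (adjusted p = 0.142) and with library size alone (edgeR adjusted p = 0.328). Psmc3ip, caught by its symbol, was the only gene of the 37 to change by 2-fold or more, from 11.8, 12.3 and 14.1 CPM to 2.27, 3.3 and 3.32 CPM (-2.07 ± 0.23, adjusted p = 1.1e-16).

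**Figure D3:**
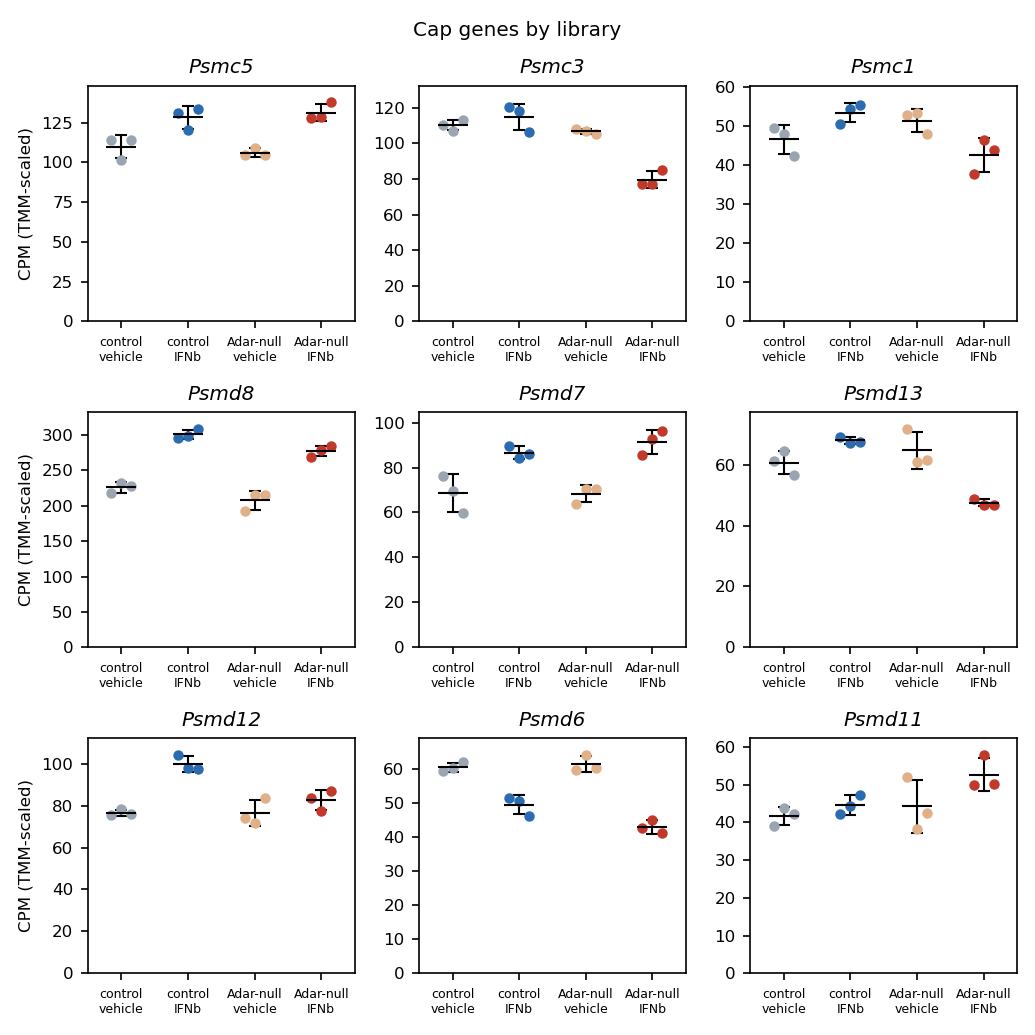
CPM of 9 cap genes in each of the 12 libraries (points), with the mean and SD of each group (bars); each axis starts at 0. Psmc3 and Psmd13 are lowest in the Adar-null IFNb libraries, Psmc5, Psmd8 and Psmd7 are raised by IFNb in both genotypes, and Psmd12 is highest in the control IFNb libraries.

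Whether the response itself differed between genotypes was tested as an interaction: the log2 change with IFNb in Adar-null cells, less the one in control cells. All 14 differences called in this fit were negative: 6 of 14 core genes and 8 of 21 cap genes, 7 without Psmc3ip. Psmd11, not called here at 0.16 ± 0.12, was called with a positive difference of 0.29 without Adar-null vehicle replicate 1 (edgeR adjusted p = 0.0389). Of all genes 59.3% were called, 28.6% positive and 30.7% negative, with a median of 0.01, and the median was -0.31 for core and -0.13 for cap genes. The core genes were Psma7 (-0.73 ± 0.10), Psma2 (-0.53 ± 0.16), Psma1 (-0.48 ± 0.09), Psmb2 (-0.42 ± 0.11), Psmb7 (-0.35 ± 0.10) and Psmb4 (-0.26 ± 0.07), and each was called in every alternative fit. The cap genes besides Psmc3ip were Psmd10 (-0.67 ± 0.18), Psmd13 (-0.60 ± 0.10), Psmc3 (-0.48 ± 0.08), Psmc1 (-0.46 ± 0.11), Psmc4 (-0.37 ± 0.08), Psmd12 (-0.26 ± 0.09) and Psmd1 (-0.25 ± 0.07). Psmd12 was lost without Adar-null vehicle replicate 3 (edgeR adjusted p = 0.057).

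The called differences took several forms. Psma7, Psmc1 and Psmd13 were called higher in control cells and lower in Adar-null cells, although the control calls of Psmc1 and Psmd13 were among the less firm. Psmb2, Psmd1 and Psmd12 rose in control cells and were not called in Adar-null cells. Psma1, Psma2, Psmb7, Psmc3, Psmc4 and Psmd10 fell in Adar-null cells and were not called in control cells. Of these, Psmd10 stood at 18.8, 17.1 and 18 CPM with vehicle and 22.8, 18.9 and 22.9 CPM with IFNb in control cells, without overlap (0.25 ± 0.12, edgeR adjusted p = 0.0702), and was called higher there without control IFNb replicate 2 (0.0215). Psmb4 fell in both, further in Adar-null cells.

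For the other genes called in the same direction in both genotypes, the difference was not detectable in the fit over all libraries. Psmc5, Psmd4, Psmd5, Psmd7 and Psmd8 were called higher in both genotypes, and their differences ran from -0.04 ± 0.08 (Psmd4) to 0.09 ± 0.09 (Psmd7), with adjusted p of 0.359 to 0.993. Psmc6, Psmd2 and Psmd6 were called lower in both. Psmd6 had a difference of -0.22 ± 0.11 and was called without control IFNb replicate 3 or Adar-null IFNb replicate 2 (0.0338 and 0.0343), and Psmd2 one of -0.13 ± 0.07 and was called without Adar-null IFNb replicate 3 (0.026). The highest value among the Psmd genes was that of Psmd9, 0.26 ± 0.15, not called (adjusted p = 0.126). The highest alpha and ATPase values, those of Psma4 and Psmc5, were -0.12 and 0.08. Psmb6 had the only positive difference of the core, 0.06 ± 0.10.

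Under IFNb, core and cap genes were called between the genotypes, where 0 had been with vehicle. A call in 1 state only does not show that the gap changed. Psmd8 had nearly the same value in both states, -0.12 ± 0.05 with vehicle (not called) and -0.12 ± 0.05 under IFNb (called). Adar-null libraries were lower in 8 of 14 core genes and higher in 0, and lower in 14 of 21 cap genes (13 without Psmc3ip) and higher in 1. Of all genes 72.6% were called, 36.4% higher and 36.2% lower. The medians were -0.33 for core and -0.20 for cap genes (-0.18 without Psmc3ip), against 0.02 for all genes. Psma7 differed most among core genes, with 80.2, 82.4 and 71.5 CPM in control and 38.6, 45.3 and 53.4 CPM in Adar-null libraries (-0.76 ± 0.08, edgeR adjusted p = 1.45e-16). Psmd10 was the lowest Psmd gene (-0.56 ± 0.13), followed by Psmd13 (-0.52 ± 0.07), and Psmc3 the lowest ATPase gene (-0.53 ± 0.06). The highest values of the alpha, beta and ATPase genes were those of Psma4 (-0.04), Psmb6 (0.03) and Psmc5 (0.04), none of them called.

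Psmd11 was the cap gene called higher in Adar-null cells under IFNb, at 42.1, 44.4 and 47.4 CPM in control and 49.9, 57.8 and 50.2 CPM in Adar-null libraries (0.24 ± 0.08). That call was lost without Adar-null IFNb replicate 2 (adjusted p = 0.14). Psmc6 (-0.14 ± 0.06) was lost without control IFNb replicate 1 or 3 or Adar-null IFNb replicate 3 (0.0662 to 0.0789), Psmd6 (-0.20 ± 0.08) without control IFNb replicate 1 or Adar-null IFNb replicate 3 (0.0655 and 0.0591), and Psmd8 (-0.12 ± 0.05) without control IFNb replicate 3 or Adar-null IFNb replicate 1 (0.0748 and 0.0517). With upper-quartile scaling Psmc6, Psmd6 and Psmd8 were lost as well (edgeR adjusted p = 0.128, 0.0546 and 0.107). DESeq2 did not call Psmc6 or Psmd6 either (adjusted p = 0.131 and 0.0784), and Psmc6 was also lost with RLE scaling (edgeR adjusted p = 0.0526). Psma5 (-0.49 ± 0.25) and Psmb5 (-0.35 ± 0.19) were not called, but Psma5 was without control IFNb replicate 1 or Adar-null IFNb replicate 1 (0.0118 and 0.0338), and Psmb5 without control IFNb replicate 1 or 2 (0.034 and 0.0403). The comparisons share libraries, so the sections above are not independent of each other.

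Summed over genes, the ratio of cap to core rose with IFNb in both genotypes, further in Adar-null cells. The 14 core genes together stood at 662 to 687 CPM in control vehicle, 686 to 719 CPM in control IFNb, 649 to 683 CPM in Adar-null vehicle and 534 to 584 CPM in Adar-null IFNb libraries. The 17 cap subunit genes, leaving out Psmc3ip, the 3 chaperones and the lid gene Shfm1, stood at 1720.1 to 1754, 1887 to 1925, 1688 to 1727 and 1659.9 to 1751 CPM. The core sum was thus lowest in the Adar-null IFNb group, with no overlap, and the cap sum highest in the control IFNb group. The cap sum divided by the core sum was 2.55 to 2.60 and 2.68 to 2.75 in control cells with vehicle and IFNb, and 2.50 to 2.66 and 2.98 to 3.11 in Adar-null cells. These sums are weighted to abundant genes and were not tested. In Adar-null cells Psmd8 alone went from 208 ± 13.3 to 277 ± 7.63 CPM (SD, n = 3), while more cap genes were called lower than higher.

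**Figure D4:**
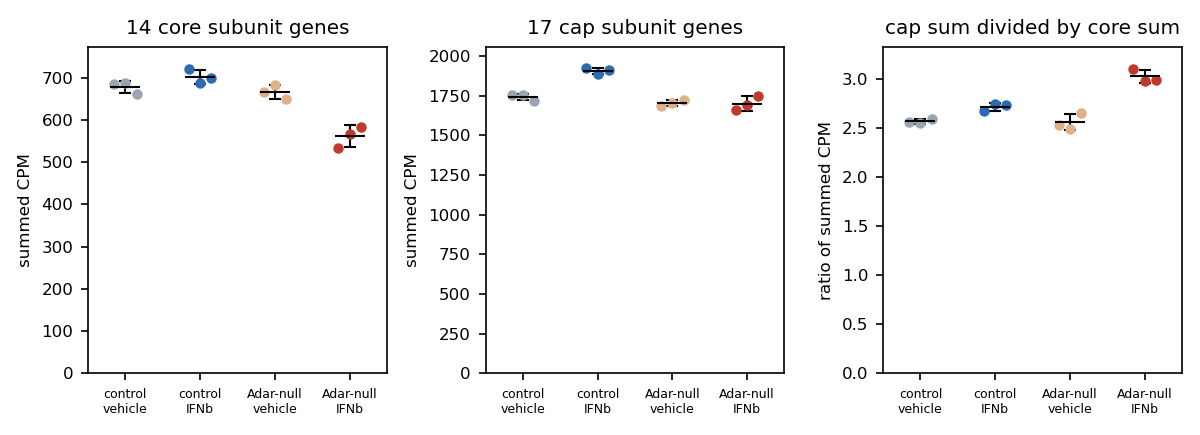
Summed CPM of the 14 core genes (left) and the 17 cap subunit genes (middle), and the ratio of the sums (right), in each library (points) with the mean and SD of each group (bars); axes start at 0. The core sum is lowest, at 534 to 584 CPM, and the ratio highest, at 2.98 to 3.11, in the 3 Adar-null IFNb libraries.

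The interferon-inducible catalytic genes, which are no members, rose in both genotypes. Psmb10, which replaces Psmb7, was at 2.14 to 5.44 CPM with vehicle and 34 to 35.3 CPM with IFNb in control cells, and at 2.34 to 5.52 and 33.5 to 36.2 CPM in Adar-null cells. For each 100 Psmb7 reads there were 3.35 to 8.66 Psmb10 reads with vehicle, 47.3 to 59.1 in control IFNb libraries and 63.9 to 71.8 in Adar-null IFNb libraries. That ratio compares reads, not molecules, since the genes differ in length. Psmb9, which replaces Psmb6, had 0 to 0.18 CPM with vehicle, 9.57 to 11.6 CPM in control IFNb and 4.65 to 12.8 CPM in Adar-null IFNb libraries, and it overlaps Tap1 on the other strand. Psmb8 had 4 to 8 reads in control IFNb libraries and 0 in all others, too few to test. Counts of called genes in this and the following lists stand beside 53% of all genes called in control and 72.3% in Adar-null cells. Of the 4 tested genes of the immunoproteasome and its PA28 activator, 4 rose in each genotype. Psme1, a PA28 subunit, had log2 rises of 2.48 ± 0.10 (control) and 1.67 ± 0.10 (Adar-null), a difference of -0.81 ± 0.15 (edgeR adjusted p = 7.7e-07).

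Of the 5 chaperones that assemble the core, Pomp, which is needed to build new core particles, was the gene called in Adar-null cells. It was at 46.5, 41.5 and 42.9 CPM with vehicle and 14.6, 17.9 and 18 CPM with IFNb, with no overlap (-1.36 ± 0.11, edgeR adjusted p = 1.06e-23). In control cells it was at 44.4, 42.8 and 37.7 and then 38.2, 34.1 and 41.2 CPM, not called at -0.14 ± 0.09, and 0 of the 5 chaperones were called there. The difference between responses was -1.22 ± 0.14 (adjusted p = 1.13e-13), the lowest of the pathway genes listed. Psmg1, Psmg2 and Psmg4 were called in no comparison in the fit over all libraries. All 5 chaperones had negative values in control cells. With library size alone, Pomp and Psmg3 were called lower there (-0.22 and -0.29, edgeR adjusted p = 0.034 and 0.0439). Psmg4 was called lower there without control vehicle replicate 3 (0.04). Psmg3 was called higher in Adar-null than in control cells under IFNb (0.32 ± 0.12), a call lost without control IFNb replicate 2 or Adar-null IFNb replicate 2 (0.182 and 0.113).

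Among 3 other activators and inhibitors, Psme4, an alternative cap, had log2 rises of 0.53 ± 0.05 (control) and 0.75 ± 0.05 (Adar-null). Psmf1, an inhibitor of the core, rose by 0.50 ± 0.08 and 0.75 ± 0.08. Psme3 rose by 0.16 ± 0.05 in control cells and was not called in Adar-null cells (-0.02 ± 0.05).

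Of 6 receptors, deubiquitinases and ligases that associate with the cap, 1 rose and 1 fell in control cells, and 1 rose and 2 fell in Adar-null cells. Usp14, a deubiquitinase of the cap, went from 61.8, 59.3 and 59.2 to 101, 97.6 and 93.6 CPM in control cells, and from 62.6, 59.2 and 59.5 to 59.8, 59.8 and 68.1 CPM in Adar-null cells. Its responses of 0.70 ± 0.07 and 0.05 ± 0.07 differed by -0.64 ± 0.10 (edgeR adjusted p = 4.04e-09). Shfm1, the smallest lid subunit, which the rule by symbol leaves out of the lid counts above, fell by 0.49 (control) and 0.92 (Adar-null) on the log2 scale. AI314180, known as Ecpas, a scaffold that holds core and cap together, rose by 0.47 ± 0.05 in Adar-null cells and was not called in control cells (-0.08 ± 0.05), and the difference of 0.56 ± 0.07 was called.

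Of 3 genes for ubiquitin and its activating enzyme, 2 rose and 0 fell in control cells, and 1 rose and 1 fell in Adar-null cells. Ubb, which encodes polyubiquitin, had log2 rises of 0.53 ± 0.09 (control) and 1.03 ± 0.08 (Adar-null). Uba1, the main ubiquitin-activating enzyme, rose by 0.16 ± 0.04 in control cells and fell by 0.19 on the log2 scale in Adar-null cells. Of 8 genes of ubiquitin shuttles and the Vcp unfoldase, 2 rose and 2 fell in control cells, and 4 rose and 1 fell in Adar-null cells. Ubqln4 and Ubqln1, both shuttles, had the highest and lowest called changes in control cells (0.42 ± 0.05 and -0.28 ± 0.05). In Adar-null cells Ubqln1 was again lowest (-0.49 ± 0.05), and Ufd1l, a Vcp cofactor, rose by 0.63 ± 0.08 in Adar-null cells and was not called in control cells (0.10 ± 0.09). Ubqln2, an X-linked shuttle gene, was the pathway gene called between genotypes with vehicle, at 2.46 to 5.05 CPM in control and 0 to 0.171 CPM in Adar-null libraries, and it stayed at 0 to 0.378 CPM in Adar-null IFNb libraries.

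Of the 11 regulators of proteasome gene transcription listed, 2 rose and 5 fell in control cells, and 5 rose and 2 fell in Adar-null cells. In control cells this was 18.2% higher and 45.5% lower, against 26.5% and 26.5% of all genes. In Adar-null cells it was 45.5% higher and 18.2% lower, against 36.6% and 35.7% of all genes. With 11 genes, these shares are no test of the list. Nfe2l1 stood at 551, 549 and 533 CPM with vehicle and 319, 313 and 326 CPM with IFNb in control cells. In Adar-null cells it stood at 538, 569.9 and 553 and then 740.1, 775 and 788 CPM. It thus fell without overlap in one genotype and rose without overlap in the other, at -0.77 ± 0.04 and 0.47 ± 0.04, a difference of 1.24 ± 0.06 (edgeR adjusted p = 3.43e-41). Mafg, a small Maf protein that pairs with the Nfe2l1 product, went from 51.8, 59.6 and 61.9 to 40.5, 40.6 and 37.1 CPM in control cells and from 54.1, 56.8 and 58 to 117, 117 and 108 CPM in Adar-null cells. Its difference of 1.57 ± 0.10 was the largest called one of the pathway genes listed. That of Psmb9 was 1.67 and was not called (edgeR adjusted p = 0.451). Mafk rose in both (0.66 ± 0.10 and 1.80 ± 0.09). Nfe2l2, whose product binds the same element as that of Nfe2l1, also rose in both (0.21 ± 0.06 and 0.37 ± 0.06). Its difference of 0.16 ± 0.08 was not called (edgeR adjusted p = 0.0781), but was called with upper-quartile scaling (0.0332). It was also called without control vehicle replicate 2 or Adar-null vehicle replicate 3 (0.0397 and 0.0191). Ngly1, the glycanase that processes the Nfe2l1 protein, fell by 0.64 in control cells and was not called in Adar-null cells (0.06 ± 0.11). Nfya and Nfyb, subunits of NF-Y, fell in both genotypes, with log2 changes of -0.51 and -0.51 (control) and of -0.71 and -0.40 (Adar-null). Counts of RNA do not measure processing or activity of these proteins.

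**Figure D5:**
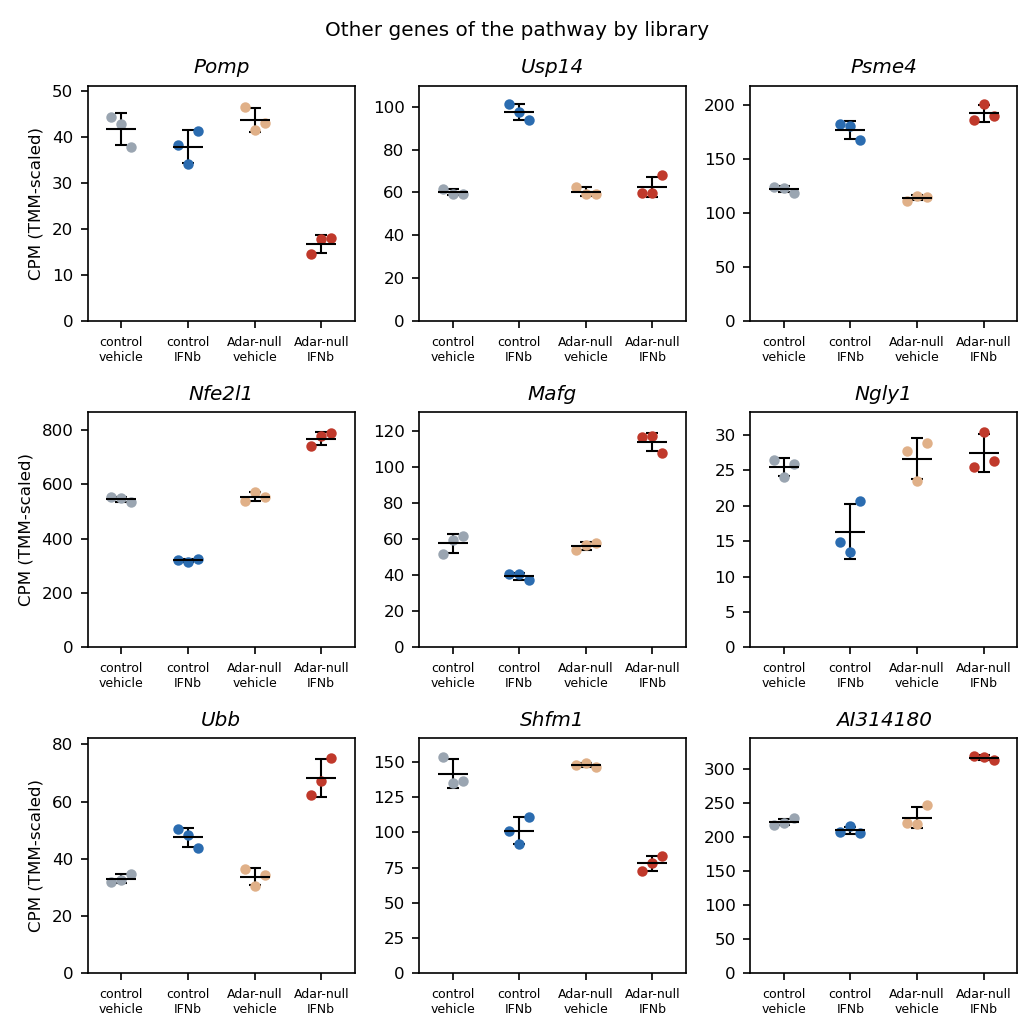
CPM of 9 other pathway genes in each of the 12 libraries (points), with the mean and SD of each group (bars); each axis starts at 0. Pomp is lowest at 14.6 to 18 CPM in Adar-null IFNb libraries, Usp14 is highest in control IFNb libraries, and Nfe2l1 and Mafg are lowered by IFNb in control cells and raised in Adar-null cells.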

How the data were processed

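RNA of 12 libraries was measured by ribosome-depleted, directional, paired-end sequencing (37-base reads), per the labels' protocols. The deposited table holds raw read counts per gene symbol, not normalised by the authors. Per the submitters' processing notes, bcl2fastq 2.19.1, Trimmomatic 0.33, Bowtie2 2.2.4, HTSeq 0.6.1p1, DESeq2 and the mm10 build were used; these notes do not state their order, settings, strand option or annotation.

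Here, genes with low counts were removed (edgeR filterByExpr by group), leaving 11561, and 1 term per group was fitted over all 12 libraries with TMM scaling by edgeR 4.0.16 (glmQLFit robust, glmQLFTest, R 4.3.3; common biological coefficient of variation 0.0397). Benjamini-Hochberg p-values were taken over all tested genes, and the code was tested on simulated data. Standard errors come from the quasi-likelihood variance, never below counting error, and intervals on counts cover counting error only. Replicates of a group differed beyond counting noise (chi-square per degree of freedom of 1.47 to 3.23), so none was merged. Gene positions, exon lengths and shared 37-base words come from GENCODE annotation of GRCm38, the assembly also called mm10, and promoters from RefSeq GRCm38.p6.

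The genes and lists were chosen with earlier results of these data known; 4 genes were left out of these lists and are not reported here, and listed genes that the text does not name enter its counts only. Every member is described or counted by class. Values per library are given for the catalytic genes and, in each class, for the highest and lowest in the IFNb response of Adar-null cells; the highest and lowest in each other comparison, and any 2-fold change, are named; further per-library values were added for genes with differing responses after their values were seen. Alternatives were RLE, upper-quartile and library-size scaling, no filter, DESeq2 1.42.0, only the 2 groups compared, a replicate block, and each library left out.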

Additional observations from a re-analysis of the deposited data

Results flagged for a closer look

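These genes are listed because edgeR's interaction test called a difference between the IFNb responses of the genotypes (log2, Adar-null less control). Core genes were Psma7 (-0.73), Psma2 (-0.53), Psma1 (-0.48), Psmb2 (-0.42), Psmb7 (-0.35) and Psmb4 (-0.26). Cap genes were Psmc3ip (-1.72), Psmd10 (-0.67), Psmd13 (-0.60), Psmc3 (-0.48), Psmc1 (-0.46), Psmc4 (-0.37), Psmd12 (-0.26) and Psmd1 (-0.25). Every difference among these was negative. Among the pathway genes it was negative for Pomp (-1.22), Psme1 (-0.81), Usp14 (-0.64), Shfm1 (-0.43), Uba1 (-0.35), Ubqln1 (-0.22), Nfya (-0.20) and Psme3 (-0.17). It was positive for Mafg (1.57), Nfe2l1 (1.24), Mafk (1.14), Ngly1 (0.70), AI314180 (0.56), Ufd1l (0.54), Ubb (0.50), Rad23b (0.37), Nploc4 (0.26), Psmf1 (0.25) and Psme4 (0.22), and for the targeted gene Adar (0.36). The Psmd12 call was lost without Adar-null vehicle replicate 3 (adjusted p = 0.057), that of Psme3 without control vehicle replicate 1 (0.0523) and that of Psme4 without Adar-null IFNb replicate 2 (0.0552). Those of Psmf1 and Nfya were lost without any of several libraries in turn, with adjusted p up to 0.186 and 0.108.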

How the results depend on the processing

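Of 140 recomputed counts of called core and cap genes, 136 stayed within 1.5 times the value reported. The others concern the IFNb response of control cells: 2 core genes with library size alone, against 4, and 8 cap genes with DESeq2, against 13. With 1 library left out, these counts ranged from 2 to 4 (core, fewest without control vehicle replicate 2) and from 8 to 12 (cap, fewest without control vehicle replicate 3). Of 2450 recomputed fold changes of the 35 tested core and cap genes, 84 lost a call, 23 gained one and 0 called ones changed sign. Of the losses, 52 came with 1 library left out, 12 with DESeq2, 8 with library size alone and 7 with upper-quartile scaling. The rest came without the filter (3), with the replicate block (1) and with RLE scaling (1). The core calls between genotypes under IFNb (8 of 8) and in the interaction (6 of 6) held in every alternative run, as did 11 of 15 and 7 of 8 of the cap calls. Of the core and cap calls, 1 of 4 and 7 of 13 held in control cells, and 5 of 7 and 13 of 17 in Adar-null cells. Same-numbered replicates did not deviate together (18 pairs, correlations from -0.10 to 0.06), so the numbers do not pair the libraries; with the replicate block, 12 cap genes were called in control cells, Psmd5 being lost (adjusted p = 0.054), and every other core and cap count was as reported. Over all genes, the vehicle comparison moved most, from 285 higher and 468 lower to 96 and 196 with DESeq2, and to 88 and 220 without control vehicle replicate 2, 123 and 269 without Adar-null vehicle replicate 1 and 158 and 305 without Adar-null vehicle replicate 2. Depth limits Psma3, Psma5, Psmb3 and Psmb5, with 18 to 79 reads a library.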
